A study of Mus musculus with 13 samples.

Results

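The genes described here are 39 genes of the neuronal synapse and of the neuronal cell body, read as carried-over neuronal RNA in RNA sequencing libraries of mouse microglia. They were taken by symbol from a list drawn up with earlier results of these data known, with no threshold on their values, and all 39 of 39 were found among the 19737 genes of the table. Levels are in FPKM, the fragments of a gene divided by its length and by the library's total. Over the 13 libraries, 28 of the genes averaged 1 FPKM or more and entered the tests, and 11 lay below that minimum. Every sample is labelled microglia, the resident macrophages of the brain. The 3 libraries of the first group came from WT mice given AAV PHP.eB-EGFP, an adeno-associated virus with a capsid that reaches the brain from the blood, carrying a green fluorescent protein. The second group held 2 libraries of 5xFAD mice given the same AAV PHP.eB-EGFP. The 5xFAD mouse is a model of Alzheimer's disease in which mutant human amyloid precursor protein and presenilin transgenes are driven by the Thy1 promoter in neurons. The third group held 4 libraries of 5xFAD mice given AAV PHP.eB-circPOLR2A, a vector for a circular RNA, with the labels (9,10), (9,11), (9,12) and (9,13), while the series' own design gives (9,10) for the whole group. Whether these were 1 construct is not settled, and they are called the circRNA libraries below. The fourth group held 4 libraries labelled 5xFAD; PKR KO, lacking the kinase activated by double-stranded RNA, with no vector named. Only the PKR KO samples carry library names, so any batch these names stand for and the knockout cannot be told apart. The ages of the mice, the promoter of the vectors and the way microglia were isolated are not given in the sources used here. The labels do not say that libraries came from separate animals, so p-values measure only the spread between these libraries.

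Neurons pass signals at synapses, where vesicles loaded with transmitter fuse with the presynaptic membrane through the SNARE proteins, and receptors held by a dense protein scaffold receive the transmitter on the other side. Some of these transcripts, such as those of Camk2a and Shank1, are carried into dendrites and stay close to synapses, away from the neuronal nucleus. Microglia touch and engulf synapses, and microglia isolated from brain can also be accompanied by fragments of neurons, so that neuronal transcripts in a microglia library need not come from microglial genes. The question asked of these genes was whether the circRNA libraries differed in them beyond the general level of neuronal RNA. In bulk RNA, fewer neurons or neuronal fragments and less RNA of each gene per neuron cannot be told apart.

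Many neuronal genes carry the RE1 element, a site at which the repressor REST keeps them silent outside neurons, and the promoters are shown because the 39 genes moved together. RefSeq promoter windows of 300 bases, from 250 bases before to 50 bases after the start, were matched by symbol for 27 of the 39 genes, in 32 windows (build GRCm38.p6). AGCACC, a part of the RE1 element, was found on either strand in 7 of the 32 windows (21.9%) and in 16.2% of all 32851 windows. GGACAG, another part, was found in 11 (34.4%) and in 22.2% of all windows. The joined letters AGCACCNNGGACAG, which hold both parts, were found in 2 windows, those of Gria2 and Gad2 (6.25%), and in 0.0517% of all windows. In all, 4 windows are printed in the direction of the gene: the pair with the joined letters, that of Syn1 with 3 matches of AGCACC, and that of Rims1, which of the 28 tested genes varied most relative to other neuronal genes. Capitals mark matches on either strand, and a match describes the letters only.
Gria2, chr3:80802786-80803085, minus strand: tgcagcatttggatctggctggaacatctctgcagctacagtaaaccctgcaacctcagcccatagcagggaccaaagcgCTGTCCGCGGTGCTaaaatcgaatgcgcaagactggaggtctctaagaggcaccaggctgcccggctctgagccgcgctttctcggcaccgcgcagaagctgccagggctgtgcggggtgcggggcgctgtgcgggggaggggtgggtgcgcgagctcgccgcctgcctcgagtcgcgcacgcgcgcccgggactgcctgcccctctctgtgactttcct
Gad2, chr2:22622077-22622376, plus strand: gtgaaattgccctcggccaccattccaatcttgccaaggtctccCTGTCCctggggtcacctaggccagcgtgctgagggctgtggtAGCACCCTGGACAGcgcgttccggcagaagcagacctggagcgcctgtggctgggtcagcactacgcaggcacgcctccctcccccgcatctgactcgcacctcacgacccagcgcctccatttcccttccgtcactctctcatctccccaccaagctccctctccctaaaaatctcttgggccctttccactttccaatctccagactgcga
Syn1, chrX:20920869-20921168, minus strand: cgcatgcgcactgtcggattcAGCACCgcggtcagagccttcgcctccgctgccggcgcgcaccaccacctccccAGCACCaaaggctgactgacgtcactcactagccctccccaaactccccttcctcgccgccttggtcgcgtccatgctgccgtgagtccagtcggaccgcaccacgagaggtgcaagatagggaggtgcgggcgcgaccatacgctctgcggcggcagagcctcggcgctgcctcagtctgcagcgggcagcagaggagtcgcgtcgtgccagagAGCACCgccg
Rims1, chr1:22806109-22806408, minus strand: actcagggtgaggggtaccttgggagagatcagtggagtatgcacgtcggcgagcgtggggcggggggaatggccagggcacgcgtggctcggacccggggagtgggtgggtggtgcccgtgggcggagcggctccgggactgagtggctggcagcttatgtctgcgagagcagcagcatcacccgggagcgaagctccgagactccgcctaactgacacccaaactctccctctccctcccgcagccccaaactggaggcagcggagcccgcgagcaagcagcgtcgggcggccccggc
The median GC content was 61.8% over the 32 windows and 52.7% over all windows. The Rims1 window held neither part. Gria2 and Gad2, with the joined letters, were both among the 11 genes below the 1 FPKM minimum.

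The libraries were microglial by their markers. The summed FPKM of 12 microglia markers ranged from 4031 to 9226, with C1qb and C1qa among the highest, while the 39 neuronal genes together made up 0.0546% to 0.253% of each library's FPKM sum. Depth, recovered from the steps between low FPKM values, was 45.2 to 70.0 M (mega) fragments. The neuronal level of a library was taken from 22 other neuronal genes above 1 FPKM, out of 41 present, none of them among the 39. Among the most abundant of these were Kif5a and Kif1a, motor proteins of axonal transport. Their geometric mean ranged from 2.06 FPKM in circRNA replicate 2 to 8.04 FPKM in WT EGFP replicate 3. WT EGFP replicate 3 stood apart from its group, whose other libraries had 3.50 and 2.59 FPKM. The summed FPKM of 9 oligodendrocyte markers moved in a similar way, with 420, 377 and 1657 in WT EGFP, 703 and 746 in 5xFAD EGFP, 819, 324, 342 and 847 with circRNA, and 286, 237, 265 and 400 with PKR KO. The summed FPKM of 10 astrocyte markers was also highest in WT EGFP replicate 3, with 187, 145 and 507 in WT EGFP, 309 and 220 in 5xFAD EGFP, 350, 185, 327 and 257 with circRNA, and 303, 188, 212 and 256 with PKR KO. All of these markers were detected in every library. The part of the astrocyte markers in the results below was not tested, and that of the oligodendrocyte markers was tested only by the fits that name them.

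The 39 genes varied together from library to library. WT EGFP replicate 3 was the highest library for 36 of the 39 genes and for 27 of the 28 tested. CircRNA replicate 2 was the lowest for 33 of the 39 and for 25 of the 28. The ratio of the highest to the lowest library had a median of 4.13 over the 28 genes, from 1.94 for Vamp2 to 6.11 for Rims1. Divided by the neuronal level of the same library, the genes varied much less. The median SD over the 13 libraries was 0.62 on the log2 FPKM scale and 0.23 on the log2 scale of this ratio, and 26 of the 28 genes varied less as a ratio. The exceptions were Stx1a, with an SD of 0.34 before and 0.37 after, and Vamp2, with 0.27 before and 0.35 after. Both are genes of the SNARE complex, but Snap25, of the same complex, varied less as a ratio, with 0.68 before and 0.19 after.

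**Figure D1:**
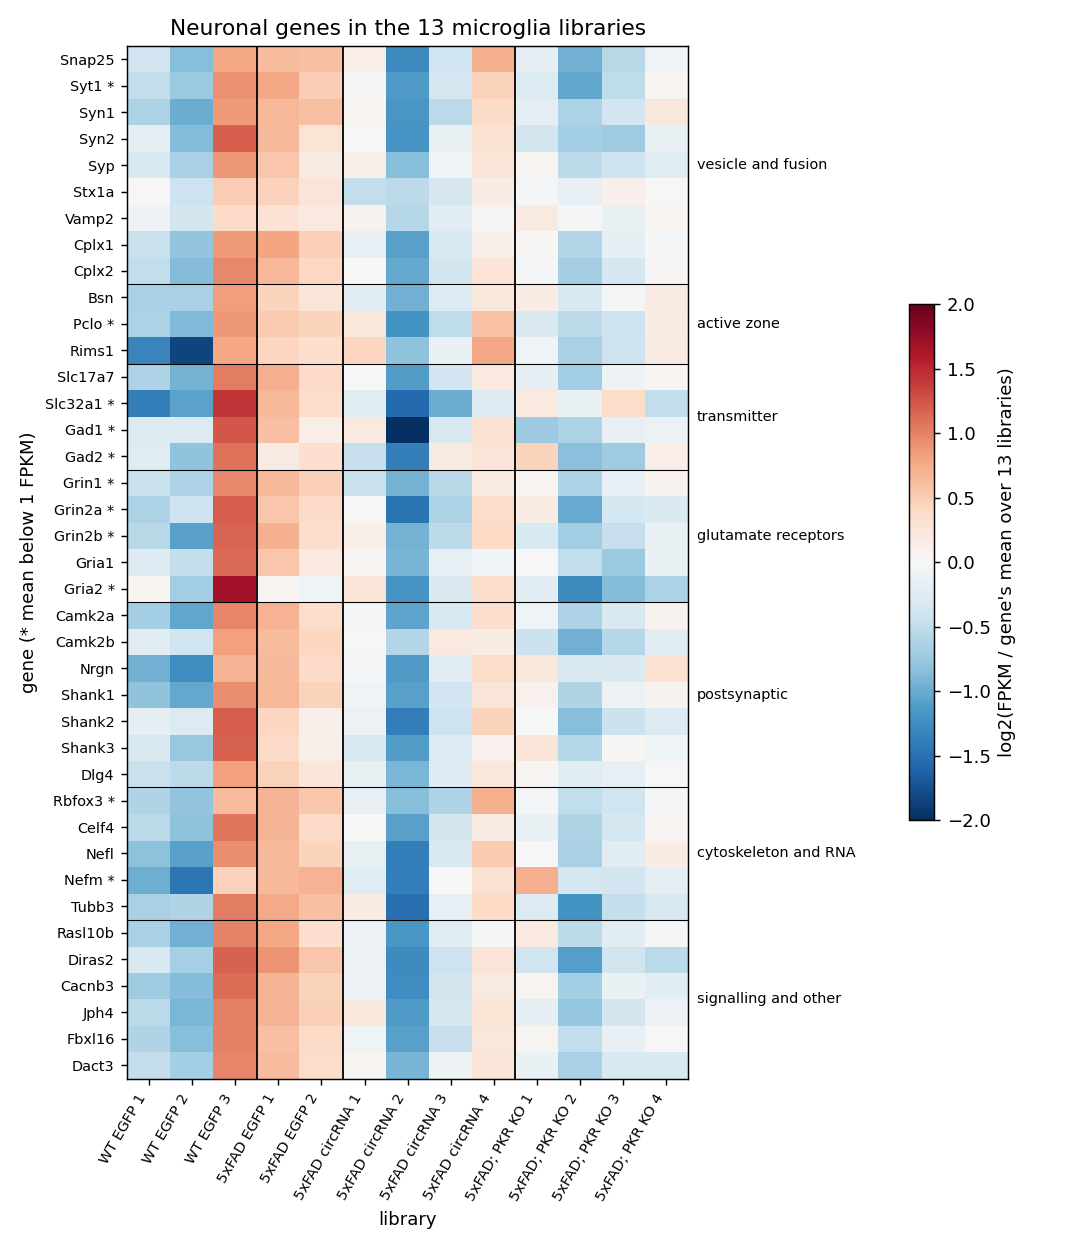
Level of each of the 39 genes (rows, by role) in each of the 13 libraries (columns, by group), as log2 of FPKM over the gene's mean across all libraries. WT EGFP replicate 3 is the highest library for 36 of the 39 genes and circRNA replicate 2 the lowest for 33, while Vamp2 and Stx1a show little contrast.

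The geometric mean of the 28 tested genes was compared with that of the 22 neuronal genes in each library. The ratio of the first to the second was 0.817, 0.906 and 0.968 in WT EGFP, and 1.04 in both 5xFAD EGFP libraries. It was 0.850, 0.951, 0.891 and 0.792 with circRNA, and 0.980, 0.992, 0.994 and 0.951 with PKR KO. The circRNA ratios lay below both 5xFAD EGFP ratios and within the range of WT EGFP except for replicate 4, which was lower. The lowest PKR KO ratio and the highest circRNA ratio were both 0.951 at this rounding, and the other PKR KO ratios were above all circRNA ratios. These ratios are a description and carry no test. The summed FPKM of 5 markers of the choroid plexus and ependyma, tissues lining the ventricles, was 2679, 2081 and 1053 in WT EGFP, 780 and 569 in 5xFAD EGFP, 941, 355, 1030 and 2240 with circRNA, and 823, 311, 808 and 204 with PKR KO. All 5 were detected in every library. The libraries with the lowest ratios, circRNA replicate 4 and WT EGFP replicate 1, had the second highest and the highest of these sums. The part of these markers in the ratios was not tested, and fits that hold them equal are given with the comparisons.

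**Figure D2:**
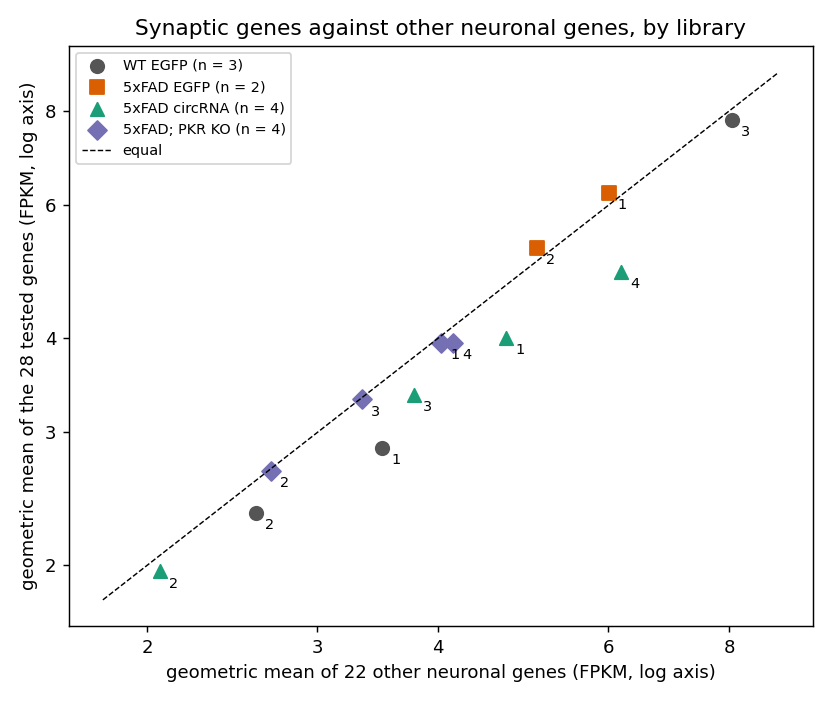
Geometric mean FPKM of the 28 tested genes against that of the 22 other neuronal genes, both on log axes, with 1 point per library, its replicate number beside it, and a dashed line where both are equal. The 5xFAD EGFP libraries lie just above the line at ratios of 1.04, and the circRNA libraries lie below it at 0.792 to 0.951.

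Among the genes of vesicles and fusion, 8 of 9 were above the 1 FPKM minimum. Vamp2, the vesicle SNARE protein synaptobrevin, was the most abundant at a mean of 12.3 FPKM. The WT EGFP libraries had 11.4, 9.55 and 16.0 FPKM of Vamp2, the 5xFAD EGFP libraries 15.0 and 14.1, and the others 12.9, 8.26, 10.4 and 12.4 with circRNA, and 13.9, 12.1, 11.1 and 12.6 with PKR KO. All circRNA libraries lay below both 5xFAD EGFP libraries, and within 2 times of every other library. Cplx2, a complexin that clamps and assists SNARE fusion, was at 6.76, 5.25 and 18.6 FPKM in WT EGFP and 15.2 and 12.7 in 5xFAD EGFP, then 9.53, 4.68, 7.44 and 11.5 with circRNA and 9.44, 5.97, 7.53 and 9.67 with PKR KO. Cplx1, the other complexin, was at 3.07, 2.42 and 7.56 FPKM in WT EGFP and 7.18 and 5.82 in 5xFAD EGFP, then 3.74, 1.96, 3.33 and 4.46 with circRNA and 4.22, 2.78, 3.64 and 4.08 with PKR KO. For both complexins, every circRNA and PKR KO library was below both 5xFAD EGFP libraries, and WT EGFP replicate 3 was above them all.

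Syn1, a synapsin that ties vesicles to the cytoskeleton, ranged from 1.39 to 5.59 FPKM with a mean of 3.11, and Syn2, another synapsin, from 0.519 to 2.69. Stx1a, the syntaxin of the presynaptic membrane, had a narrow range of 1.86 to 3.81 FPKM, with 2.65, 2.01 and 3.81 in WT EGFP, 3.69 and 3.20 in 5xFAD EGFP, 1.91, 1.86, 2.13 and 2.96 with circRNA and 2.60, 2.40, 2.88 and 2.70 with PKR KO. Snap25, the third SNARE partner, ranged from 0.773 to 3.17 FPKM. Its circRNA replicate 4, at 3.03 FPKM, was above both 5xFAD EGFP libraries at 2.87 and 2.82. Syp, the vesicle membrane protein synaptophysin, ranged from 0.726 to 2.39 FPKM, and Syt1, the calcium sensor of fusion, was below the minimum at a mean of 0.946 FPKM.

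Of the 3 genes of the active zone, where vesicles are released, Rims1 and Bsn were tested. Rims1, a scaffold that tethers vesicles and calcium channels, was at 3.76, 2.61 and 15.9 FPKM in WT EGFP, 12.6 and 11.9 in 5xFAD EGFP, 12.6, 5.37, 8.56 and 16.0 with circRNA, and 8.90, 5.97, 7.00 and 10.5 with PKR KO. It was the 1 tested gene whose highest library was not WT EGFP replicate 3, since circRNA replicate 4 was marginally higher. Relative to the neuronal level, Rims1 was at 1.07, 1.01 and 1.98 in WT EGFP and from 2.10 to 2.68 in all 10 libraries of the 5xFAD groups, without overlap. Bsn, bassoon, was at 3.04, 3.03 and 8.47 FPKM in WT EGFP, 6.48 and 5.65 in 5xFAD EGFP, 4.13, 2.44, 3.93 and 5.47 with circRNA and 5.29, 3.84, 4.69 and 5.34 with PKR KO. Pclo, piccolo, a partner of bassoon, had a mean of 0.741 FPKM and was not tested.

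The transmitter genes were led by the excitatory one. Slc17a7, the vesicular glutamate transporter VGLUT1 of cortical excitatory neurons, had a mean of 3.37 FPKM. It was at 2.20, 1.75 and 6.85 FPKM in WT EGFP, 5.58 and 4.40 in 5xFAD EGFP, 3.41, 1.55, 2.58 and 3.87 with circRNA, and 2.99, 2.08, 3.13 and 3.45 with PKR KO. The genes of inhibitory neurons were far lower and were not tested: Slc32a1, the vesicular GABA transporter, had a mean of 0.237 FPKM, Gad2 0.174 and Gad1 0.150, the last 2 encoding the enzymes that make GABA. Gad1 rested on as few as 7 fragments, in circRNA replicate 2. Slc32a1 shares 24.9% of its exon bases with an antisense gene, and whether the counting used the strand is not given in the sources used here.

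Of the 5 glutamate receptor genes, Gria1 alone passed the minimum. Gria1, an AMPA receptor subunit, ranged from 0.667 FPKM in circRNA replicate 2 to 2.77 in WT EGFP replicate 3. Gria2, the AMPA subunit that limits calcium entry, had a mean of 0.551 FPKM, with 1.76 in WT EGFP replicate 3 and 0.229 to 0.706 in the other 12 libraries. The NMDA receptor subunits Grin1, Grin2b and Grin2a had means of 0.388, 0.345 and 0.171 FPKM. Each of the 5 receptor genes had a lower mean FPKM than each of the 7 postsynaptic genes described next.

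All 7 genes of the postsynaptic side were tested. Camk2a, the main subunit of the calcium and calmodulin dependent kinase of excitatory synapses, was the most abundant of the 39 genes at a mean of 31.4 FPKM. Camk2a was at 19.6, 15.3 and 62.0 FPKM in WT EGFP, 51.0 and 40.1 in 5xFAD EGFP, 30.6, 15.1, 25.4 and 40.1 with circRNA, and 29.5, 20.4, 25.5 and 33.0 with PKR KO. The lower 5xFAD EGFP library and circRNA replicate 4 were equal at this rounding. Camk2b, the beta subunit, was much lower at a mean of 1.49 FPKM, and its PKR KO libraries, at 1.11, 0.766, 1.00 and 1.29 FPKM, lay below both 5xFAD EGFP libraries at 2.31 and 2.00. Nrgn, neurogranin, a calmodulin binding protein of dendritic spines, was at 6.72, 5.56 and 21.1 FPKM in WT EGFP, 20.4 and 17.1 in 5xFAD EGFP, 12.9, 5.98, 11.2 and 16.8 with circRNA, and 15.2, 10.5, 10.7 and 16.2 with PKR KO.

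The Shank proteins are large scaffolds of the postsynaptic density. Shank1 was the highest of them at a mean of 9.66 FPKM, Shank3 had 4.40 and Shank2 2.35. Shank2 was at 2.07, 1.95 and 5.44 FPKM in WT EGFP, 3.18 and 2.54 in 5xFAD EGFP, 2.17, 0.904, 1.76 and 3.23 with circRNA and 2.33, 1.31, 1.76 and 1.95 with PKR KO. Shank3 was at 3.51, 2.60 and 9.92 FPKM in WT EGFP, 5.72 and 4.78 in 5xFAD EGFP, 3.57, 2.03, 3.64 and 4.65 with circRNA and 5.26, 2.96, 4.46 and 4.13 with PKR KO. For Shank3 the groups overlapped except circRNA and 5xFAD EGFP. Dlg4, the scaffold PSD-95, ranged from 2.31 to 7.67 FPKM.

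Among the genes of the cytoskeleton and of RNA in neurons, Nefl, the light neurofilament, ranged from 1.50 to 7.43 FPKM, Celf4, an RNA binding protein, from 1.51 to 6.74, and Tubb3, neuronal tubulin, from 0.729 to 4.20. Rbfox3, the nuclear antigen NeuN, had a mean of 0.701 FPKM and Nefm, the medium neurofilament, 0.188, and neither was tested. Nefl and Nefm lie on opposite strands of chromosome 14 and share 1108 exon bases in the GENCODE M21 annotation, which is 32.8% of Nefl and 19.2% of Nefm, so that their values may be mixed. Of the 39 genes, 13 shared any exon base with another gene and 5 shared over 10%, which were Nefl, Nefm, Slc32a1, Syp and Grin1.

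The last 6 genes were all tested. Fbxl16, an F-box protein abundant in neurons, was second of the 39 at a mean of 14.6 FPKM, with 9.63, 8.09 and 29.5 in WT EGFP, 22.3 and 19.1 in 5xFAD EGFP, 13.8, 6.90, 10.7 and 17.1 with circRNA and 15.2, 10.4, 13.2 and 14.5 with PKR KO. Dact3, known from Wnt signalling, had a mean of 7.07 FPKM, Rasl10b, a Ras-like GTPase, 5.04, and Jph4, a junctophilin that joins endoplasmic reticulum to the cell membrane, 3.95. Cacnb3, a calcium channel beta subunit, had 2.69 FPKM. Diras2, a small GTPase, was at 1.19, 0.947 and 3.40 FPKM in WT EGFP, 2.80 and 2.20 in 5xFAD EGFP, 1.39, 0.624, 1.12 and 1.79 with circRNA and 1.14, 0.702, 1.14 and 1.03 with PKR KO.

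**Figure D3:**
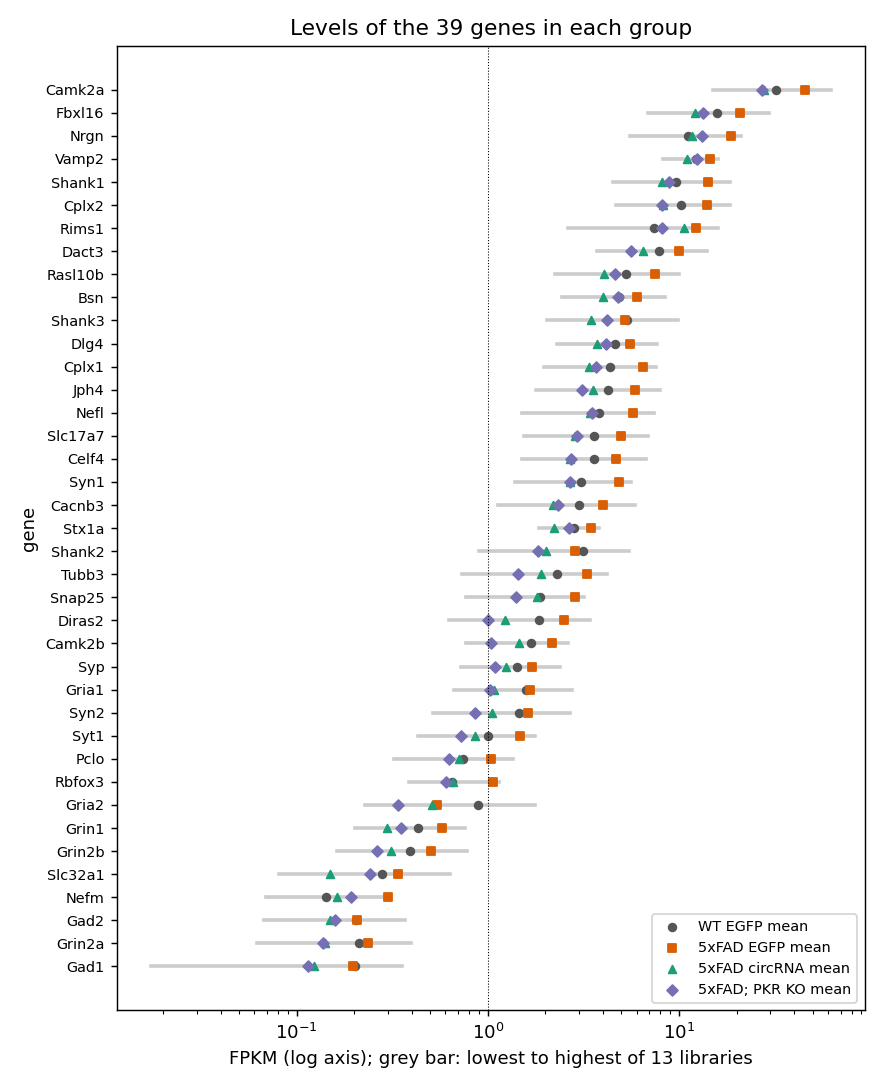
Mean FPKM of each of the 39 genes in each group (symbols) and the lowest to highest of the 13 libraries (grey bar) on a log axis, in order of the overall mean, with a dotted line at 1 FPKM. Camk2a is highest at a mean of 31.4 FPKM and Gad1 lowest at 0.150, and the bars of neighbouring genes overlap throughout.

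The order of levels was Camk2a, then Fbxl16, Nrgn, Vamp2, Shank1, Cplx2 and Rims1, from 31.4 down to 9.37 FPKM. Between neighbours in this order the ranges over libraries overlapped in every case. The genes most like the 28 tested genes in pattern were taken as the 10 other genes with the highest Pearson r to the mean log2(FPKM + 1) of the 28, over the 13 libraries, which share depth and cell mixture within each library. These were Ddn, Hpcal4, Septin3, Kifc2, Phactr1, Mpped1, Tmcc2, Epb41l1, Map2 and Golga7b, with r from 0.988 to 0.994. Ddn, dendrin, a protein of dendrites, was first at a mean of 23.1 FPKM.

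Group differences were tested with limma on log2(FPKM + 1) over all 10817 genes that averaged 1 FPKM or more, and the adjusted p (Benjamini-Hochberg over those genes) had a threshold of 0.05. Log2 changes are differences on this scale, given with their SE. The comparisons share groups, so their values are not independent of each other.

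Between 5xFAD EGFP and WT EGFP, 27 of the 28 genes were higher in 5xFAD, but none passed the test, where 14.0% of all genes did. The median log2 change was 0.49 for the 28 genes and -0.03 for all genes tested. Nrgn differed by 0.93 ± 0.46 (adjusted p = 0.233), Rims1 by 1.00 ± 0.54 (adjusted p = 0.273) and Cplx1 by 0.60 ± 0.33 (adjusted p = 0.282), by limma. None of the 28 reached an unadjusted p of 0.05 either, where 26.2% of all genes did. Limma's voom on recovered fragments also called 0 of the 28. This count rested on WT EGFP replicate 3. Without that library, 20 of the 28 genes were called, all higher in 5xFAD EGFP, where 8.96% of all genes were called higher, with Rims1 at 1.68 (adjusted p = 0.00924), Nrgn at 1.47 (adjusted p = 0.0124) and Cplx1 at 1.00 (adjusted p = 0.0139), and the median was 0.92. In that library the oligodendrocyte markers summed to 1657 FPKM and the microglia markers to 4031, the extremes of the series. Markers of endothelial cells, mural cells of vessels and border macrophages were each higher in WT EGFP than in 5xFAD EGFP, without overlap. They summed to 58.5 to 138, 56.4 to 123 and 35.6 to 56.5 FPKM in WT EGFP. In 5xFAD EGFP they summed to 27.1 to 38.4, 20.3 to 36.2 and 17.9 to 24.6 FPKM. The part of these markers in this comparison was not tested.

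Between circRNA and 5xFAD EGFP, all 28 genes were lower with circRNA, and again 0 of the 28 passed the test, where 0.00% of all 10817 genes did. The median log2 change was -0.64 for the 28 genes and 0.08 for all genes. Stx1a differed by -0.48 ± 0.17, Cplx1 by -0.81 ± 0.32 and Diras2 by -0.67 ± 0.28, each with an adjusted p of 0.739 by limma. At an unadjusted p below 0.05 there were 3 of 28 genes, these 3, against 4.83% of all genes, and voom called 0. In 22 of the 28 genes every circRNA library was below both 5xFAD EGFP libraries, against 2.65% of all genes. The 6 genes that overlapped were Snap25, Nefl, Syn2, Syp, Shank2 and Rims1. The 22 neuronal genes of the level had a median of -0.38, with no overlap (circRNA lower) in 7 of 22, and 27 tested genes of a further synaptic list had -0.25, with no overlap in 5 of 27. The oligodendrocyte markers spanned 324 to 847 FPKM with circRNA and 703 to 746 in 5xFAD EGFP.

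The comparison was repeated at equal neuronal level, with the mean log2(FPKM + 1) of the 22 neuronal genes in each library as a further term. The median difference of the 28 genes between circRNA and 5xFAD EGFP then was -0.25, with 0.07 for all genes, -0.04 for the 22 genes of the level and -0.03 for the 27 further synaptic genes. Of the 28 genes, 27 stayed negative and Rims1 turned to 0.26 ± 0.12. None of the 28 passed the adjusted threshold, where 0.00% of all genes did. At an unadjusted p below 0.05 there were 21 of 28 genes, against 9.05% of all genes, and voom called 0 of the 28. Among the genes of the level it was 5 of 22, and among the further synaptic genes 3 of 27. The 21 include genes that may have been listed for their behaviour here, such as Diras2. Cplx1 differed by -0.48 ± 0.08 (unadjusted p = 5.96e-05, adjusted p = 0.322), Diras2 by -0.38 ± 0.09 (adjusted p = 0.397) and Cplx2 by -0.32 ± 0.08 (adjusted p = 0.397), by limma. Relative to the neuronal level, the 5xFAD EGFP libraries had Cplx1 at 1.20 and 1.15, above the circRNA libraries at 0.794, 0.950, 0.880 and 0.722, without overlap. With the choroid plexus and ependymal markers as a second term, the median of the 28 was -0.21 and 0 were called. The adjusted p of Cplx1 ranged from 0.0761 to 1.00 over the alternatives and libraries left out.

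**Figure D4:**
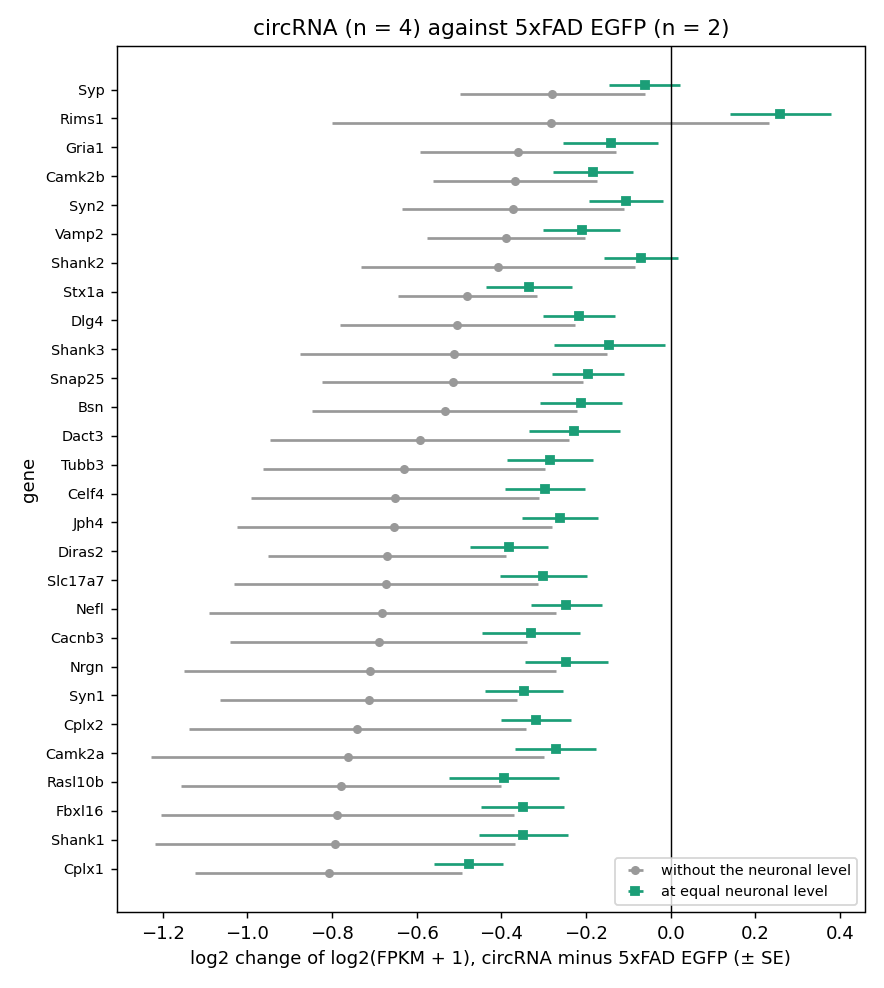
Log2 change of each tested gene between circRNA (n = 4) and 5xFAD EGFP (n = 2), with SE bars, without (grey circles) and with (green squares) the neuronal level in the model. All 28 genes are negative without it, with a median of -0.64, and with it the median is -0.25 and Rims1 alone is positive.

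Between circRNA and WT EGFP, 26 of the 28 genes were lower and Rims1 and Nrgn higher, with a median of -0.14 against 0.02 for all genes. None of the 28 passed, where 25.8% of all genes did. None of them had an unadjusted p below 0.05, where 36.7% of all genes did, and voom called 0 of the 28. Stx1a differed by -0.24 ± 0.15 (adjusted p = 0.267), Rims1 by 0.72 ± 0.45 (adjusted p = 0.282) and Shank2 by -0.42 ± 0.29 (adjusted p = 0.315), by limma. Without WT EGFP replicate 3, Rims1 alone of the 28 was called, at 1.39 (adjusted p = 0.00752), where 15.0% of all genes were called higher.

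At equal neuronal level 5 of the 28 genes passed between circRNA and WT EGFP, where 33.7% of all genes did. Rims1 was higher by 0.80 ± 0.10 (adjusted p = 4.61e-05) and Nrgn by 0.29 ± 0.08 (adjusted p = 0.0161), by limma. The changes of the lower genes were -0.37 ± 0.07 for Shank2 (adjusted p = 0.00197), -0.23 ± 0.08 for Diras2 (adjusted p = 0.0336) and -0.31 ± 0.11 for Shank3 (adjusted p = 0.0482), by limma. The share of 5 in 28 was below the background. Rims1 and Shank2 kept the call without any 1 library, with Rims1 from 0.72 to 0.97 and Shank2 from -0.43 to -0.28. Nrgn lost it without WT EGFP replicate 1 (0.22, adjusted p = 0.0774). Diras2 and Shank3 lost it without any of several libraries, down to -0.14 and -0.15 without WT EGFP replicate 3. Over the 11 other settings, the call was lost in 8 for Shank3, 6 for Diras2, 3 for Nrgn, 2 for Shank2 and 1 for Rims1. With the neuronal level subtracted from every gene in place of a fitted slope, none of the 5 was called, and Rims1 stood at 0.77 (adjusted p = 0.385). The subtraction also shifts genes that do not follow that level. With the choroid plexus and ependymal markers as a second term, 3 of the 28 genes were called, where 17.8% of all genes were. Of the 5, Rims1 alone was among them, at 0.55 (adjusted p = 0.00221), while Shank2 was at -0.27 (adjusted p = 0.0791) and Nrgn at 0.16 (adjusted p = 0.345).

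Between PKR KO and 5xFAD EGFP, the 28 genes were all lower with PKR KO, by a median of -0.61 against 0.01 for all genes, and 0 of 28 passed, where 0.0832% of all genes did. Camk2b differed by -0.63 ± 0.19 (adjusted p = 0.216), Diras2 by -0.80 ± 0.28 (adjusted p = 0.259) and Tubb3 by -0.84 ± 0.33 (adjusted p = 0.320), by limma. At an unadjusted p below 0.05 there were 4 of 28 genes (14.3%), near the 13.0% of all genes, and voom called 0. In 27 of the 28 genes, all except Shank3, the groups did not overlap, with PKR KO lower, against 17.0% of all genes. The oligodendrocyte markers did not overlap either, with 237 to 400 FPKM with PKR KO and 703 to 746 in 5xFAD EGFP, nor did the sum of 5 markers of oligodendrocyte precursors, with 9.05 to 13.8 and 21.7 to 24.8 FPKM, and the part of either in this difference was not tested. Fitted with these 2 groups alone, which estimates the spread without the WT EGFP and circRNA libraries, 12 of the 28 genes were called, all lower, where 3.37% of all genes were called lower. Between PKR KO and WT EGFP, the median was -0.10 against -0.05 for all genes, 20 of 28 genes were lower, and 0 passed, where 37.0% of all genes did. Camk2b differed by -0.36 ± 0.17 (adjusted p = 0.121), Diras2 by -0.41 ± 0.25 (adjusted p = 0.208) and Shank2 by -0.47 ± 0.29 (adjusted p = 0.219), by limma. None of the 28 had an unadjusted p below 0.05, where 46.7% of all genes did, and voom called 0 of the 28. Without WT EGFP replicate 3, 2 of the 28 genes were called, both higher with PKR KO, where 35.0% of all genes were called in either direction. Without WT EGFP replicate 2 it was 1 of 28, lower, where 35.6% of all genes were called in either direction.

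The neuronal levels of circRNA and PKR KO overlapped, at 2.06 to 6.18 FPKM (mean 4.18) and 2.69 to 4.14 FPKM (mean 3.55). Between these groups, the 28 genes had a median log2 change of -0.03 against 0.08 for all genes. None of the 28 passed, where 6.19% of all genes did. None of them had an unadjusted p below 0.05, where 25.5% of all genes did, and voom called 0 of the 28. Camk2b differed by 0.26 ± 0.16 (adjusted p = 0.311), Stx1a by -0.19 ± 0.13 (adjusted p = 0.392) and Vamp2 by -0.17 ± 0.15 (adjusted p = 0.504), by limma.

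At equal neuronal level, 10 of the 28 genes were called between circRNA and PKR KO, where 16.5% of all genes passed in either direction, and all 10 were lower with circRNA, where 3.65% of all genes were. They were Nrgn, Shank3, Bsn, Fbxl16, Rasl10b, Shank1, Dlg4, Nefl, Cplx1 and Vamp2, of which 4 belong to the postsynaptic side and 2 to vesicle fusion. Nrgn differed by -0.37 ± 0.08 (adjusted p = 0.00938), Shank3 by -0.36 ± 0.10 (adjusted p = 0.0320), Bsn by -0.36 ± 0.08 (adjusted p = 0.0100) and Fbxl16 by -0.33 ± 0.08 (adjusted p = 0.0144), by limma. The median of the 28 was -0.18, and 2 of the 22 genes of the level and 2 of the 27 further synaptic genes were called lower. Relative to the neuronal level, Bsn was at 0.877, 1.18, 1.04 and 0.885 with circRNA and 1.31, 1.43, 1.41 and 1.29 with PKR KO, Nrgn at 2.74, 2.90, 2.96 and 2.72 against 3.78, 3.89, 3.21 and 3.92, and neither overlapped.

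The 10 calls depended on the model. With the oligodendrocyte markers as a second term, 0 of the 28 genes and 2 of all genes were called, with Nrgn at -0.32 (adjusted p = 0.174), Bsn at -0.37 (adjusted p = 0.144), Fbxl16 at -0.44 (adjusted p = 0.110) and Shank3 at -0.26 (adjusted p = 0.362). The oligodendrocyte markers summed to 324 to 847 FPKM with circRNA and to 237 to 400 with PKR KO. With the choroid plexus and ependymal markers as the second term, 0 of the 28 were called, where 6.43% of all genes were, with Nrgn at -0.27 (adjusted p = 0.106), Bsn at -0.31 (adjusted p = 0.0871), Fbxl16 at -0.27 (adjusted p = 0.128) and Shank3 at -0.36 (adjusted p = 0.143). With the neuronal level subtracted from every gene in place of a fitted slope, 0 were called as well, and 1 of all genes. Nrgn was then at -0.33, Bsn at -0.37, Fbxl16 at -0.30 and Shank3 at -0.36 (adjusted p = 1.00 for each). The subtraction also shifts genes that do not follow the neuronal level, so this loss of calls is not particular to the 28. Over all settings other than a library left out, the changes lay between -0.40 and -0.27 for Nrgn, -0.44 and -0.31 for Bsn, -0.44 and -0.27 for Fbxl16, and -0.45 and -0.26 for Shank3. Leaving out 1 library gave 3 to 10 calls, with 3 without PKR KO replicate 1, 4 without circRNA replicate 1 or PKR KO replicate 3, and 6 without PKR KO replicate 2. Nrgn, Bsn and Fbxl16 kept the call without any 1 library, and Shank3 lost it in 4 of the 13 cases.

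**Figure D5:**
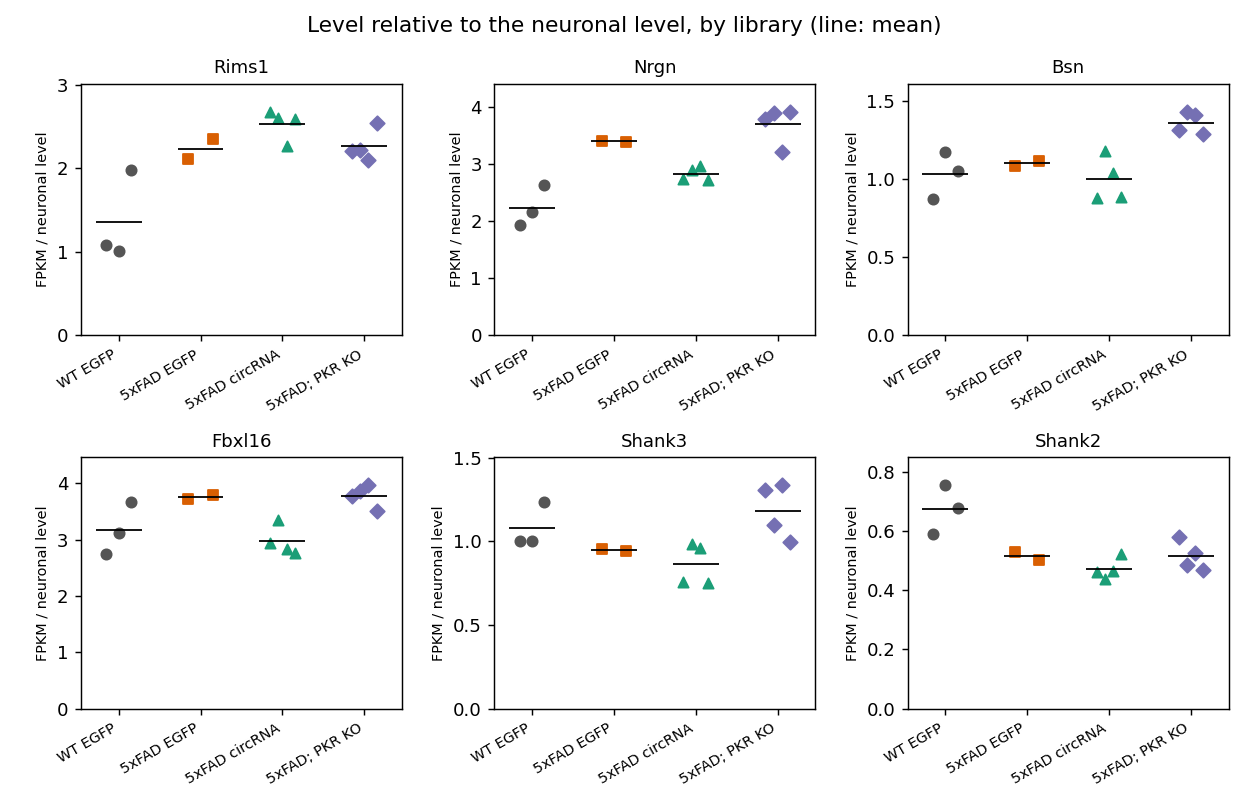
FPKM over the neuronal level of the same library for 6 genes named with a test, by group, with 1 symbol per library and a line at the group mean. Rims1 is at 1.01 to 1.98 in WT EGFP and at 2.10 to 2.68 elsewhere, and Bsn, Nrgn and Fbxl16 are lower with circRNA than with PKR KO without overlap.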

How the data were processed

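Per the labels' protocols, RNA was isolated with TRIzol, depleted of ribosomal RNA, made into stranded libraries and sequenced on a NovaSeq instrument. The authors deposited 1 table of FPKM values for 19737 genes, with 1 column per library, all 13 used. The submitters' processing notes name HISAT2 2.1.0, Bowtie2 2.3.5, featureCounts 1.5.1 and the build mm10. Their roles, the annotation and the strand setting are not given in the sources used here. FPKM is relative to each library's total, so changes in abundant genes move all other values.

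Fragments were recovered from the steps of FPKM values below 0.3 with GENCODE M21 exon lengths (19394 genes, 98.3%). Of 47122 low values, 90.7% were whole within 0.02 of a fragment, against 4% by chance. Recovered depth was 45.2 to 70.0 M (mega) fragments, and values of a few fragments carry large counting errors. Tests were run on log2(FPKM + 1) with limma 3.58.1 (R 4.3.3) for the 10817 genes that averaged 1 FPKM or more, with 1 mean per group over all 13 libraries (9 residual degrees of freedom, 8 with the neuronal level), eBayes with an intensity trend, and Benjamini-Hochberg adjustment within each comparison. The method was tested on simulated data. Groups were taken from the titles. In each comparison, tests are given for the genes that passed, for the 4 raised and 4 lowered with the largest change where over 8 passed, and for the 3 with the smallest p where none did. At most the 3 most abundant genes of another list are named. The 39 genes, the lists and the tests were chosen with earlier results of these data known, and some members (Rasl10b, Diras2, Cacnb3, Jph4, Fbxl16, Dact3 and Celf4) may have been listed for their behaviour here, which is no independent support. The alternatives were another pseudocount, no filter, 2 scalings, the replicate block, the compared groups alone, each library left out, another source or slope of the neuronal level, and, chosen after the data were seen, voom on the recovered fragments, a neuronal level from fewer of its genes, and the oligodendrocyte or the choroid plexus and ependymal markers as a term. Some listed genes are not reported here.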

Additional observations from a re-analysis of the deposited data

Results flagged for a closer look

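Within the groups of 4 libraries, 84 sets of values were examined for a library far from the others (the FPKM of each of the 39 genes, and the neuronal level, the level of the tested genes and their ratio). In 1 of them a library stood apart: Nefm, the medium neurofilament, was at 0.312 FPKM in PKR KO replicate 1, while the next highest PKR KO library was at 0.166 and the lowest at 0.146. Chance gives about 1 in 20 such sets. Nefm lay below the 1 FPKM minimum, was not tested, and shares exon bases with Nefl.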

How the results depend on the processing

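No log2 change of a gene picked for its p or its call, as the methods describe, changed sign in that comparison under the alternatives run. Rims1 between circRNA and 5xFAD EGFP was not picked so, and went from -0.28 to 0.26 with the neuronal level in the model. The 6 counts without the neuronal level were 0 as reported, and became 12 between PKR KO and 5xFAD EGFP with the 2 groups alone, 1 between circRNA and WT EGFP and 1 between PKR KO and WT EGFP with every library rescaled to the same FPKM sum, which moved the median of all genes to -0.20 and -0.24, and 1 between PKR KO and WT EGFP with the replicate block. Leaving out 1 library at a time gave 0 to 20 calls between 5xFAD EGFP and WT EGFP, 0 to 1 between circRNA and WT EGFP and 0 to 2 between PKR KO and WT EGFP, with 0 in the other 3 comparisons. At equal neuronal level, the count between circRNA and 5xFAD EGFP was 0 under every alternative. As reported, 33.7% of all genes passed at that level between circRNA and WT EGFP, and 16.5% between circRNA and PKR KO. Where the share of all genes under an alternative is not given, whether the changed count was particular to the neuronal genes was not tested. The 5 calls between circRNA and WT EGFP became 3 with a pseudocount of 0.1, 10 with the same sum, 3 with the replicate block, 3 with voom, 10 with the level taken from the other synaptic genes, 0 with the slope fixed at 1, 3 with the level from fewer of its genes and 3 with the choroid plexus and ependymal markers as a term, and 3 to 6 with 1 library left out. The 10 calls between circRNA and PKR KO became 0 with the slope fixed at 1, 0 with the oligodendrocyte markers as a term, 0 with the choroid plexus and ependymal markers as a term, and 3 to 10 with 1 library left out. With the slope fixed at 1, 1 gene of all passed in that comparison, and the level from fewer of its genes gave 10 calls there. Libraries with the same replicate number had deviations correlated on average from 0.02 to 0.33 by comparison, with some pairs at or below 0.1, so the replicate block is a number shared in the titles and not an established pairing. It changed no other count by over 1.5 times. Of the 11 genes below 1 FPKM, depth limits those with few fragments, such as Gad1 with 7 to 137, while long genes such as Grin2b, with 193 to 972, were kept out by the FPKM minimum, and the 5xFAD EGFP group has 2 libraries.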

Other observations

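Some neuronal and synaptic genes outside the 39 did not follow them. Cacna1a, a calcium channel of nerve terminals, was at 1.60, 1.91 and 2.60 FPKM in WT EGFP and between 10.8 and 16.1 FPKM in the 10 libraries of the 5xFAD groups. Syngr1, a synaptogyrin of vesicles, was at 17.2, 20.1 and 15.6 FPKM in WT EGFP and between 26.1 and 39.8 FPKM in the 5xFAD groups. For both genes the WT EGFP libraries lay below every 5xFAD library, while circRNA replicate 2, with the lowest neuronal level of the series, had 10.8 FPKM of Cacna1a (the lowest of the 5xFAD groups) and 32.7 of Syngr1. In contrast, the highest library of Kif5a was that of most of the 39. Kif5a, a kinesin of axonal transport and itself 1 of the 22 genes that make up the neuronal level, was at 370 FPKM in WT EGFP replicate 3 and at 58.4 to 196 FPKM in the other libraries.

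Markers of cortical and inhibitory neurons were low. The markers of excitatory forebrain neurons summed to 1.06 to 3.10 FPKM over the libraries and those of inhibitory neurons to 1.04 to 5.04 FPKM, the last in WT EGFP replicate 3. The summed FPKM of 7 genes listed as striatal markers was higher, at 11.7, 8.83 and 10.9 FPKM in WT EGFP, 6.73 and 4.69 in 5xFAD EGFP, 7.34, 2.65, 4.46 and 9.86 with circRNA, and 6.16, 3.17, 4.22 and 3.44 with PKR KO. Most of this sum was Ppp1r1b, a phosphatase inhibitor of striatal neurons, with a mean of 5.24 FPKM over the libraries. Unlike the neuronal level, this sum was highest in WT EGFP replicate 1, where the choroid plexus and ependymal markers were also highest (2679 FPKM). Both sums were high in circRNA replicate 4 (9.86 and 2240 FPKM) and low in circRNA replicate 2 (2.65 and 355 FPKM), and the part of those markers in the sum was not tested.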
